A study of Drosophila melanogaster with 30 samples.

Results

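X chromosome euchromatin is taken here as all 300-bp bins of the dm3 X sequence that start at or before position 20500000, which leaves out the part of X next to the centromere. It holds 68334 bins, or 20.5 Mb, of the 464488 bins that the lists span in all, a share of 14.7%. The bins were chosen by position, not by any measured value, and no chromatin mark in these data checks the name euchromatin. Of these bins, 658 (0.963%) are listed in at least 1 of 3 comparisons, and 67676 are in no list. The last listed bin inside the limit runs from 20122501 to 20122800, and the first one beyond it runs from 20925001 to 20925300.

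The lists come from MNase-titration-seq of PH-ML–expressing cells, PH-WT–expressing cells and *Drosophila* S2 cells, a cultured line of embryonic origin, with 10 libraries for each line. PH-ML, called PH-mut in the sample labels, is the SAM domain mutant of polyhomeotic (PH) that cannot polymerize. Each PH protein is made from a tagged construct under an inducible metallothionein promoter in a stable S2 line, in which the endogenous PH is still present. All samples carry the same protocol, growth after induction with 0.5 mM CuSO4, and each line has 2 experiments with 5 amounts of MNase (1.65, 6.25, 25, 100 and 400 U in the labels, where the design text gives the lowest as 1.5 U). Each construct is represented by a single stable line, so a difference between lines and an effect of the construct cannot be told apart. The authors' lists name, for each bin that they called different between a pair of lines, the line with the higher MACC, and a bin is called PH-ML-high, PH-WT-high or S2-high after that line. They hold no MACC score, p-value or value per library, so no spread between experiments can be given and no test between lines was run. The depth behind each bin is unknown, and a bin that is not listed may lack coverage or may differ too little to be called.

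MACC, the accessibility score of MNase-titration-seq, is the slope of released nucleosomal reads over rising amounts of MNase. The paper reads positive MACC as high accessibility and negative MACC as low, and a bin with the higher MACC is called more accessible here in that sense. PH is a subunit of the Polycomb Repressive Complex 1, which keeps developmental genes silent, and its SAM domain links PH molecules into polymers that hold distant chromatin sites together. X has its own regulation in S2 cells, which are of male origin: the male-specific lethal complex coats the chromosome, acetylates histone H4 and raises transcription of X genes to match the pair of X chromosomes of females. X also carries ph-p and ph-d, the duplicated genes that encode PH. In the gene table used here, which belongs to release 6 of the genome, they are neighbors with 0 protein-coding genes between them. That table's positions are not those of dm3, so the genes at the positions given here were not analysed.

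On X euchromatin, most bins listed for PH-ML against S2 were more accessible in PH-ML–expressing cells. They number 48, and 14 were more accessible in S2 cells, which gives a share for PH-ML of 77.4% (95% Wilson interval 65.6% to 86.0%). Such an interval covers counting error only, since neighboring bins share reads and are not replicates. All 62 bins make up 0.0907% of the bins of X euchromatin, against 0.174% of the whole span. By direction, 0.0702% of X bins were PH-ML-high, against 0.129% of the whole span, and 0.0205% were S2-high, against 0.0452%. X euchromatin thus had fewer calls of both directions than the genome as a whole, and its share in favor of PH-ML was close to the 73.0% (69.2% to 76.5%) of the autosomal arms 2L, 2R, 3L and 3R.

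PH-WT against S2 gave a more even split on X than on any autosomal arm. PH-WT–expressing cells had the higher MACC in 76 bins and S2 cells in 95, so that 44.4% (37.2% to 51.9%) were PH-WT-high, against 22.4% (19.9% to 25.1%) on the autosomal arms. The PH-WT-high bins were 0.111% of X euchromatin and 0.0721% of the whole span. S2-high bins were 0.139% of X euchromatin and 0.233% of the whole span. All 171 bins together were 0.250% of X, with 0.305% in the whole span. Much of the excess for PH-WT lay in a single stretch of 14.4 kb from 2011501 to 2025900, which was picked with the results of these data in view and which holds 26 of the 76 bins. Without it the share was 34.5% (27.2% to 42.5%), from 50 PH-WT-high and 95 S2-high bins. The autosomal shares were 24.8% on 2L, 13.4% on 2R, 23.3% on 3L and 25.4% on 3R. The interval of X without the stretch overlaps those of 2L, 3L and 3R. It lies above that of 2R (9.22% to 19.0%) and above that of the arms together (19.9% to 25.1%). The difference between X and the arms was not tested, because bins are not independent and the lists give no replicates.

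Between the PH-expressing lines, X euchromatin was listed in near-equal numbers for both directions. PH-ML–expressing cells had the higher MACC in 310 bins and PH-WT–expressing cells in 288, a share for PH-ML of 51.8% (47.8% to 55.8%). The 598 bins are 0.875% of X, against 1.49% of the whole span. In PH-ML's favor were 0.454% of X bins and 0.788% of the span, and in PH-WT's favor 0.421% and 0.707%. The arms together were at 49.3% (48.0% to 50.7%). Without the stretch at 2011501 to 2025900 the share on X was 53.3% (49.2% to 57.3%).

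**Figure D1:**
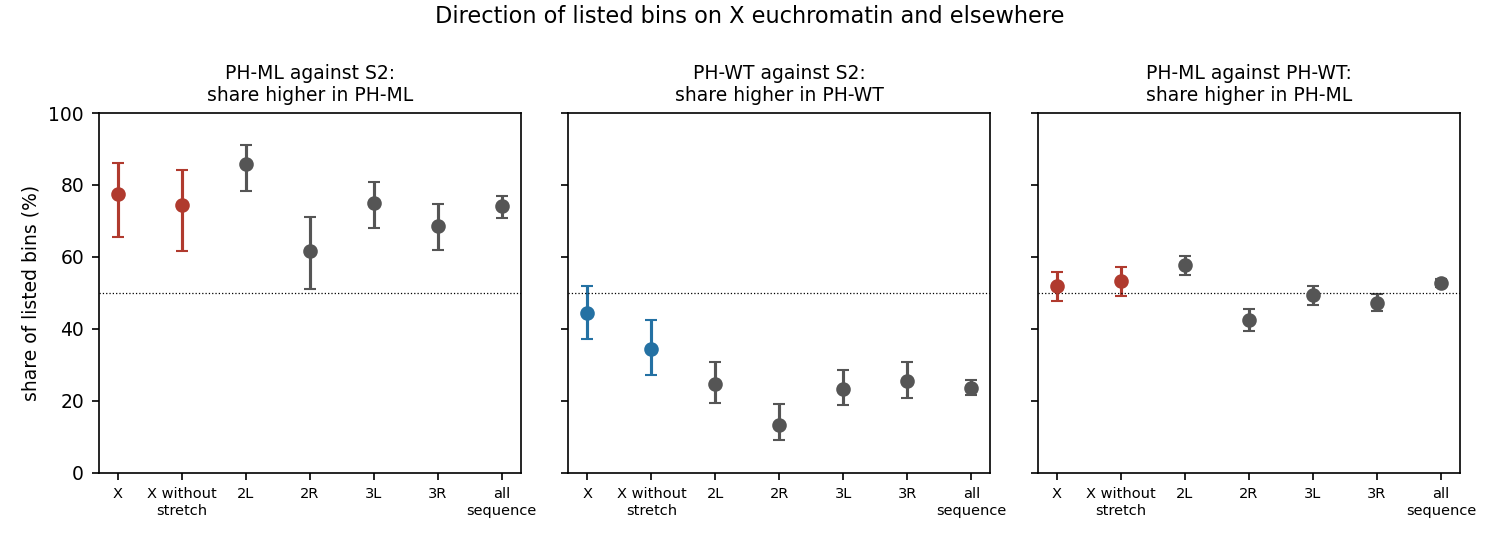
Share of listed bins with the higher MACC in the line named above each plot (y axis, percent) for X euchromatin, X euchromatin without the stretch from 2011501 to 2025900, 4 autosomal arms and all sequence spanned. Points are shares and bars are 95% Wilson intervals of counting error; for PH-WT against S2 the X share is 44.4%, or 34.5% without the stretch, and the arms lie between 13.4% and 25.4%.

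Calls were sparse on X in all comparisons. The number of calls in a part also depends on its read depth, which the lists do not give. Whether depth or copy number differs between X and the autosomal arms in these lines of male origin was not tested. PH-ML against S2 gave 3.02 listed bins per Mb of X euchromatin, 0.516 times the 5.86 per Mb of the autosomal arms. For PH-ML against PH-WT the density was 29.2 per Mb, 0.527 times the 55.4 per Mb of the arms. PH-WT against S2 came closer, with 8.34 per Mb on X and 10.2 per Mb on the arms, a ratio of 0.818, or 0.694 without the stretch. In each comparison X ranked last of the 5 arms, and 2R came nearest to it. On 2R the density was 4.07 per Mb (3.29 to 5.02) for PH-ML against S2, where X had 2.36 to 3.88. For PH-WT against S2 it was 8.84 per Mb (7.66 to 10.2), where X had 7.18 to 9.69. These intervals overlap. For PH-ML against PH-WT 2R had 48.0 per Mb (45.2 to 51.1), above the 26.9 to 31.6 of X.

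The deficit was not alike for both directions of PH-WT against S2. S2-high bins of that comparison had 0.585 times their autosomal density on X, with 4.63 per Mb against 7.92. PH-WT-high bins had 1.63 times their autosomal density, 3.71 per Mb against 2.28. Without the stretch this second ratio was 1.07, so that outside it PH-WT-high bins were about as dense on X as on the arms. For PH-ML against S2 the ratios were 0.547 for PH-ML-high and 0.431 for S2-high bins. When the PH-expressing lines were compared with each other, they were 0.553 for PH-ML-high and 0.501 for PH-WT-high bins. Leaving out the 2 Mb of each arm next to the centromere moved the ratios of all calls little, to 0.525 for PH-ML against S2, 0.825 for PH-WT against S2 and 0.534 for PH-ML against PH-WT.

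**Figure D2:**
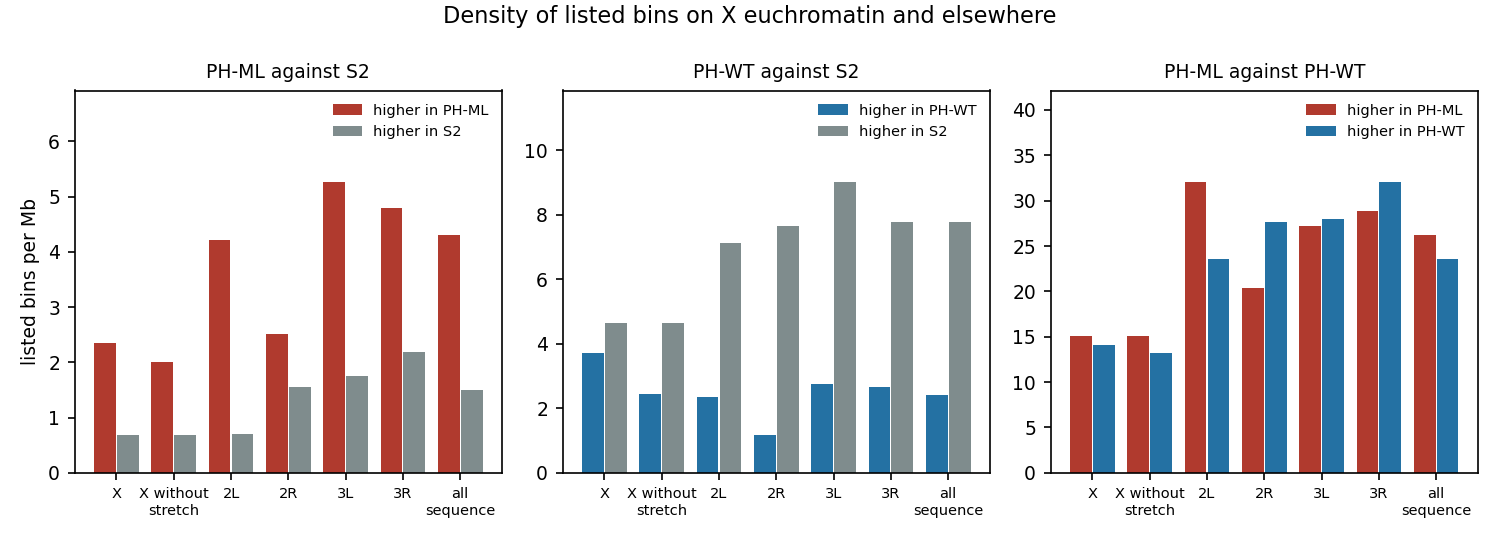
Listed bins per Mb by direction (y axis, linear, scaled for each plot) on X euchromatin, X euchromatin without the stretch, 4 autosomal arms and all sequence spanned. Bars of S2-high bins over PH-WT reach 4.63 per Mb on X and 7.13 or more on the autosomal arms. Bars of PH-WT-high bins over S2 are 3.71 per Mb on X, 2.44 on X without the stretch and at most 2.74 on the arms.

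Along X the listed bins were unevenly spread. In 20 successive windows of 1 Mb, PH-ML against S2 had a median of 2 bins per window, 7 empty windows and 11 bins in the fullest, which runs from 11 to 12 Mb. All 11 of those were PH-ML-high. The 3 fullest windows held 29 of the 62 bins, or 46.8%. An empty tract of 3.83 Mb, from 7375801 to 11206800, separated the listed bins of the distal part from those of the middle.

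PH-WT against S2 had a median of 6.5 bins per window and 1 empty window, from 16 to 17 Mb. Its fullest window, from 2 to 3 Mb, held 43 bins, 35 of them PH-WT-high and 8 S2-high. That count rests on the stretch: without it the window held 17 bins, 9 PH-WT-high and 8 S2-high, as many as the window from 13 to 14 Mb, where 2 bins were PH-WT-high and 15 S2-high. S2-high bins outnumbered the others in 13 windows and PH-WT-high bins in 6.

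PH-ML against PH-WT had bins in each window, with a median of 23.5. The fullest was from 13 to 14 Mb, with 67 bins, 40 PH-ML-high and 27 PH-WT-high. The emptiest, from 16 to 17 Mb, had 9, of which 1 was PH-ML-high. PH-ML led in 9 windows and PH-WT in 11. Some leads were narrow, such as 10 PH-ML-high against 11 PH-WT-high bins from 9 to 10 Mb. Whether windows differ in direction by more than chance was not tested.

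Among blocks of 5 Mb, the last of which runs from 15 to 20.5 Mb, the middle of X leaned most toward PH-ML. Between 10 and 15 Mb, 145 bins were PH-ML-high over PH-WT and 61 were PH-WT-high, a share of 70.4% (63.8% to 76.2%). The other blocks had shares below an even split, with 42.3% (34.6% to 50.3%) from 0 to 5 Mb, or 47.3% (38.9% to 55.9%) there without the stretch, 40.5% (32.3% to 49.2%) from 5 to 10 Mb and 43.6% (35.0% to 52.6%) from 15 to 20.5 Mb. Without the middle block the share on X euchromatin fell to 42.1% (165 of 392 bins), so PH-WT-high bins were the majority on the rest of X euchromatin. That does not extend to X beyond the limit, where 72 bins were PH-ML-high and 19 PH-WT-high. The same block was also the densest, with 41.2 listed bins per Mb against 25.3 on the rest of X euchromatin. The block was singled out after its values were seen.

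Against S2 the middle block was listed as follows. PH-ML–expressing cells had the higher MACC in 23 bins there and S2 cells in 3, a share of 88.5% (71.0% to 96.0%), with 69.4% (53.1% to 82.0%) on the rest of X euchromatin, or 62.1% (44.0% to 77.3%) on the rest without the stretch. PH-WT–expressing cells had the higher MACC in 11 bins and S2 cells in 42, a share of 20.8% (12.0% to 33.5%), with 55.1% (46.1% to 63.8%) on the rest, or 42.4% (32.8% to 52.6%) on the rest without the stretch. The share for PH-WT in the middle block is near that of the autosomal arms. Outside 10 to 15 Mb, 65 bins were PH-WT-high over S2, or 39 without the stretch. Since the block was singled out after its values were seen, this split does not locate the high X share for PH-WT. All 3 comparisons share cell lines in pairs and so share libraries, which means that their directions in a block are not independent of each other.

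**Figure D3:**
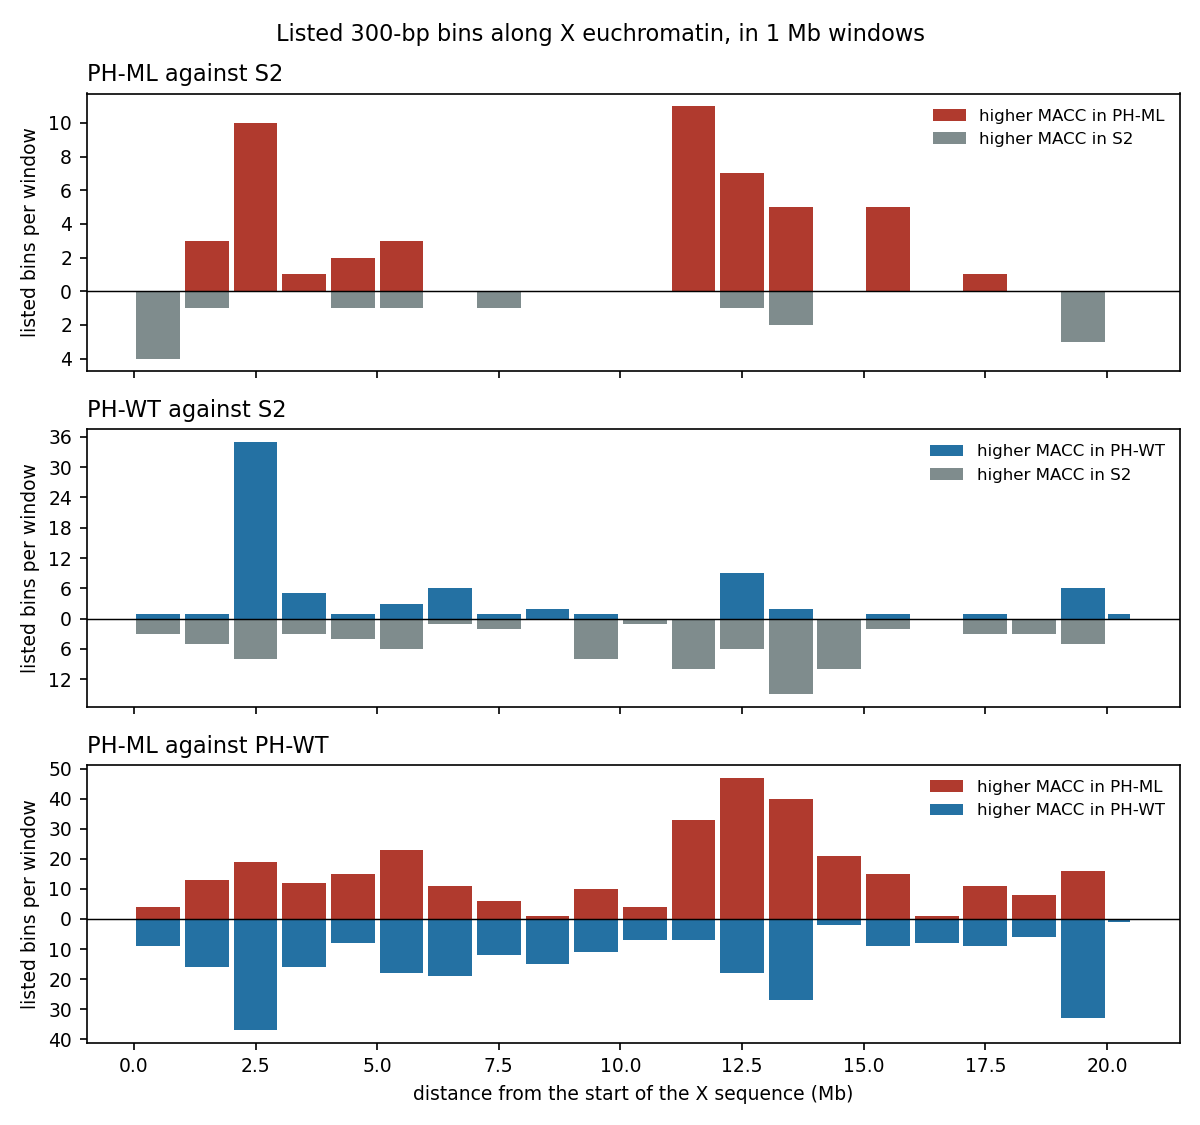
Listed bins in windows of 1 Mb against distance from the start of the X sequence (x axis, Mb; the last window covers 0.5 Mb), with bins of higher MACC in the first-named line drawn upward and those of the second-named line downward. For PH-WT against S2 the window from 2 to 3 Mb reaches 35 bins upward, and for PH-ML against PH-WT the windows from 11 to 15 Mb lean upward, with 33, 47, 40 and 21 PH-ML-high bins.

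No bin was listed within 100 kb of the distal start of X, and the first listed bin started at 174301, S2-high over PH-WT. The longest tract with no listed bin in any comparison covers 581.7 kb from 711901 to 1293600.

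Most runs of listed bins were single bins. Merging adjacent bins of the same direction gave 39 PH-ML-high runs for PH-ML against S2, of which 35 were single bins, and 14 S2-high runs, all single. For PH-WT against S2 there were 46 PH-WT-high runs, 37 of them single, and 70 S2-high runs, 48 of them single. Runs of PH-ML against PH-WT numbered 228 for PH-ML, with 177 single, and 221 for PH-WT, with 178 single.

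Neighboring calls mostly pointed the same way. Of the adjacent listed bins, all 9 pairs in PH-ML against S2, all 55 in PH-WT against S2 and 149 of 150 in PH-ML against PH-WT had the same direction. Adjacent bins can be covered by the same fragments, so this is a description of the lists and not a count of separate events. At distances up to 10 kb, without adjacent bins, the next listed bin had the same direction in 19 of 20 pairs of PH-ML against S2, 41 of 48 pairs (85.4%) of PH-WT against S2 and 184 of 262 pairs (70.2%) of PH-ML against PH-WT. Beyond 10 kb the shares were 65.6% for PH-ML against S2, 61.2% for PH-WT against S2 and 54.1% for PH-ML against PH-WT. Pairs share a direction more often in a list with an uneven split, such as PH-ML against S2 with 77.4% PH-ML-high bins. The shares were not compared with that base, so they cannot be ranked between comparisons.

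Joining bins whose starts lie at most 10 kb apart gathered 15 of 62 bins (24.2%) of PH-ML against S2 into 2 clusters of 5 or more bins. In PH-WT against S2, 77 of 171 bins (45.0%) fell into 10 such clusters, and in PH-ML against PH-WT 354 of 598 bins (59.2%) fell into 34. Both clusters of PH-ML against S2 had only PH-ML-high bins. Of the 10 clusters of PH-WT against S2, 2 held only PH-WT-high bins, 5 only S2-high bins and 3 were mixed. Among the 34 of PH-ML against PH-WT, 13 were wholly PH-ML-high, 5 wholly PH-WT-high and 16 mixed. At a fixed joining distance, a denser list puts more of its bins into clusters and more often joins both directions. The lists had 3.02, 8.34 and 29.2 bins per Mb in the same order, so neither clustering nor mixing can be ranked between comparisons.

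The stretch from 2011501 to 2025900 is the largest cluster of PH-WT against S2 on X. All 26 of its 48 bins listed in that comparison were PH-WT-high, and 0 were S2-high. It thus takes up 34.2% of the PH-WT-high bins over S2 on X euchromatin in 0.0702% of its length. The bins form separate blocks at both ends of the stretch. On the left, from 2011501 to 2015400, 11 of 13 bins were PH-WT-high over S2. On the right, from 2021101 to 2025900, it was 15 of 16 bins. Between the blocks lie 5.7 kb, from 2015401 to 2021100, where 0 of 19 bins were listed for PH-WT against S2. The longest runs of the comparison are within these blocks, 11 bins from 2022601 to 2025900 and 8 bins from 2013001 to 2015400.

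PH-ML–expressing cells also had a higher MACC than S2 cells in this stretch, at 7 bins, and S2 cells at 0. Of these, 1 was in the left block, 1 between the blocks and 5 in the right block, where 3 of them were adjacent, from 2024701 to 2025600. On X euchromatin both PH-expressing lines exceeded S2 in 7 listed bins, 6 of them in this stretch and the other from 2540401 to 2540700, which is 514.5 kb further along.

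The PH-expressing lines also differed from each other here, and mostly in the left block. PH-WT–expressing cells had the higher MACC in 18 bins of the stretch and PH-ML–expressing cells in 2. In the left block all 11 PH-WT-high bins over S2 were also PH-WT-high over PH-ML. In the right block 7 of 15 were, and the other 8 had no listed difference between PH-WT and PH-ML. The 2 PH-ML-high bins, starting at 2015701 and 2017501, are both between the blocks.

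Few bins beside the stretch were PH-WT-high over S2. In the 99.9 kb before it 11 bins were listed in any comparison, of which 1 was PH-WT-high over S2, and in the 99.9 kb after it 1 bin was listed, which was PH-ML-high over PH-WT. Both PH-expressing lines carry introduced PH DNA that S2 cells lack. Reads from such DNA and from the endogenous ph-p and ph-d cannot be told apart in these lists, and whether ph-p and ph-d lie in the stretch was not analysed here for want of dm3 gene positions.

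**Figure D4:**
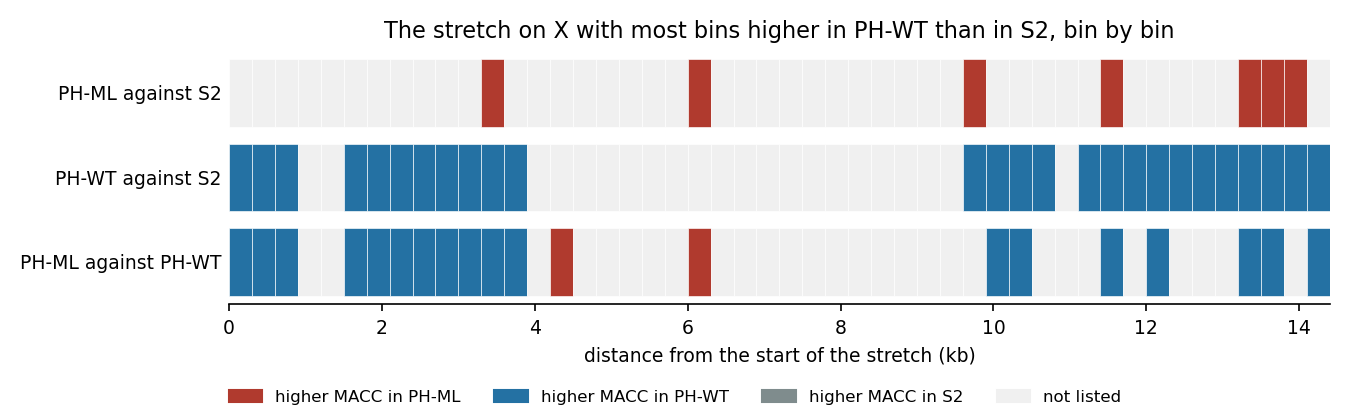
The 48 bins of the stretch on X in each comparison, against distance from its start (x axis, kb). Boxes are 300-bp bins colored by the line with the higher MACC, and pale boxes were not listed; the PH-WT-high bins over S2 fill 11 of 13 bins at the left and 15 of 16 at the right and leave the 5.7 kb between them empty.

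The fullest cluster of PH-ML against S2 lies from 11695501 to 11701200, a span of 5.7 kb with 19 bins, ahead of the 7 bins listed in the stretch. In it 8 bins were PH-ML-high and 0 S2-high, among them the longest run of that comparison, 6 bins from 11699401 to 11701200. PH-WT against S2 had no listed bin in this span. PH-ML against PH-WT had 12, all PH-ML-high, 10 of which form that comparison's longest run from 11698201 to 11701200. The span is therefore listed as more accessible in PH-ML than in either other line.

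The next clusters of PH-ML against S2 pointed to both sides. The 4 bins from 323701 to 327600 were S2-high, and the same span had 8 PH-WT-high bins over PH-ML and 1 PH-WT-high over S2, so PH-ML was the line with the low value there. The 3 bins from 1849801 to 1853100 were PH-ML-high over S2. That span had 5 PH-ML-high bins over PH-WT and 2 S2-high over PH-WT. S2-high bins over PH-ML nowhere lay side by side on X euchromatin: the longest runs were single bins, starting with those at 323701 and 324301.

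Among the clusters of PH-WT against S2, the one from 2739301 to 2746200 had 7 bins, all S2-high, including the longest run of this direction, 4 bins from 2739301 to 2740500. In the same 6.9 kb, 9 bins were PH-ML-high over PH-WT and 1 was PH-WT-high. A run of 6 PH-ML-high bins over PH-WT, from 2739001 to 2740800, spans it at the left. PH-ML against S2 had 1 PH-ML-high bin there, which leaves PH-WT as the line with the low MACC. A run of 3 S2-high bins over PH-WT, from 5814001 to 5814900, had the same form, with 3 PH-ML-high bins over PH-WT and 2 PH-ML-high over S2.

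The reverse was seen from 6752401 to 6756900. All 6 bins listed there for PH-WT against S2 were PH-WT-high, 8 bins were PH-WT-high over PH-ML, and PH-ML against S2 had none. A cluster of 7 bins from 12641101 to 12663300 was mixed, with 5 PH-WT-high bins and 2 S2-high. It is part of a longer tract of PH-ML against PH-WT.

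That tract, from 12605701 to 12666600, is the fullest cluster on X euchromatin in any comparison. In its 60.9 kb, 36 bins were PH-ML-high over PH-WT and 13 were PH-WT-high, so 49 of 203 bins were listed. Over all 203 bins of the tract, fewer were listed against S2: 6 bins were PH-ML-high and 1 was S2-high in the PH-ML comparison, and 6 were PH-WT-high and 6 S2-high in the PH-WT comparison. Without this tract, 274 of the 549 bins on X were PH-ML-high over PH-WT, or 49.9%.

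From 5773801 to 5826900, PH-ML against PH-WT had 27 listed bins among 177, with 21 PH-ML-high and 6 PH-WT-high. PH-ML against S2 had 3 PH-ML-high bins and 1 S2-high in this tract, and PH-WT against S2 had 2 PH-WT-high and 4 S2-high. The cluster with the next most bins, from 2006701 to 2034900, includes the stretch near 2 Mb, with 5 PH-ML-high bins and 18 PH-WT-high.

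A cluster of the opposite kind lies at the proximal side, from 19745101 to 19761000. All of its 18 bins listed for PH-ML against PH-WT were PH-WT-high, led by a run of 6 bins from 19745101 to 19746900. PH-WT against S2 had 3 bins there, all PH-WT-high, and PH-ML against S2 had 2, both S2-high. In this cluster of 15.9 kb the calls thus had a single direction, whereas both directions occur in the tracts that start at 5773801 and 12605701.

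**Figure D5:**
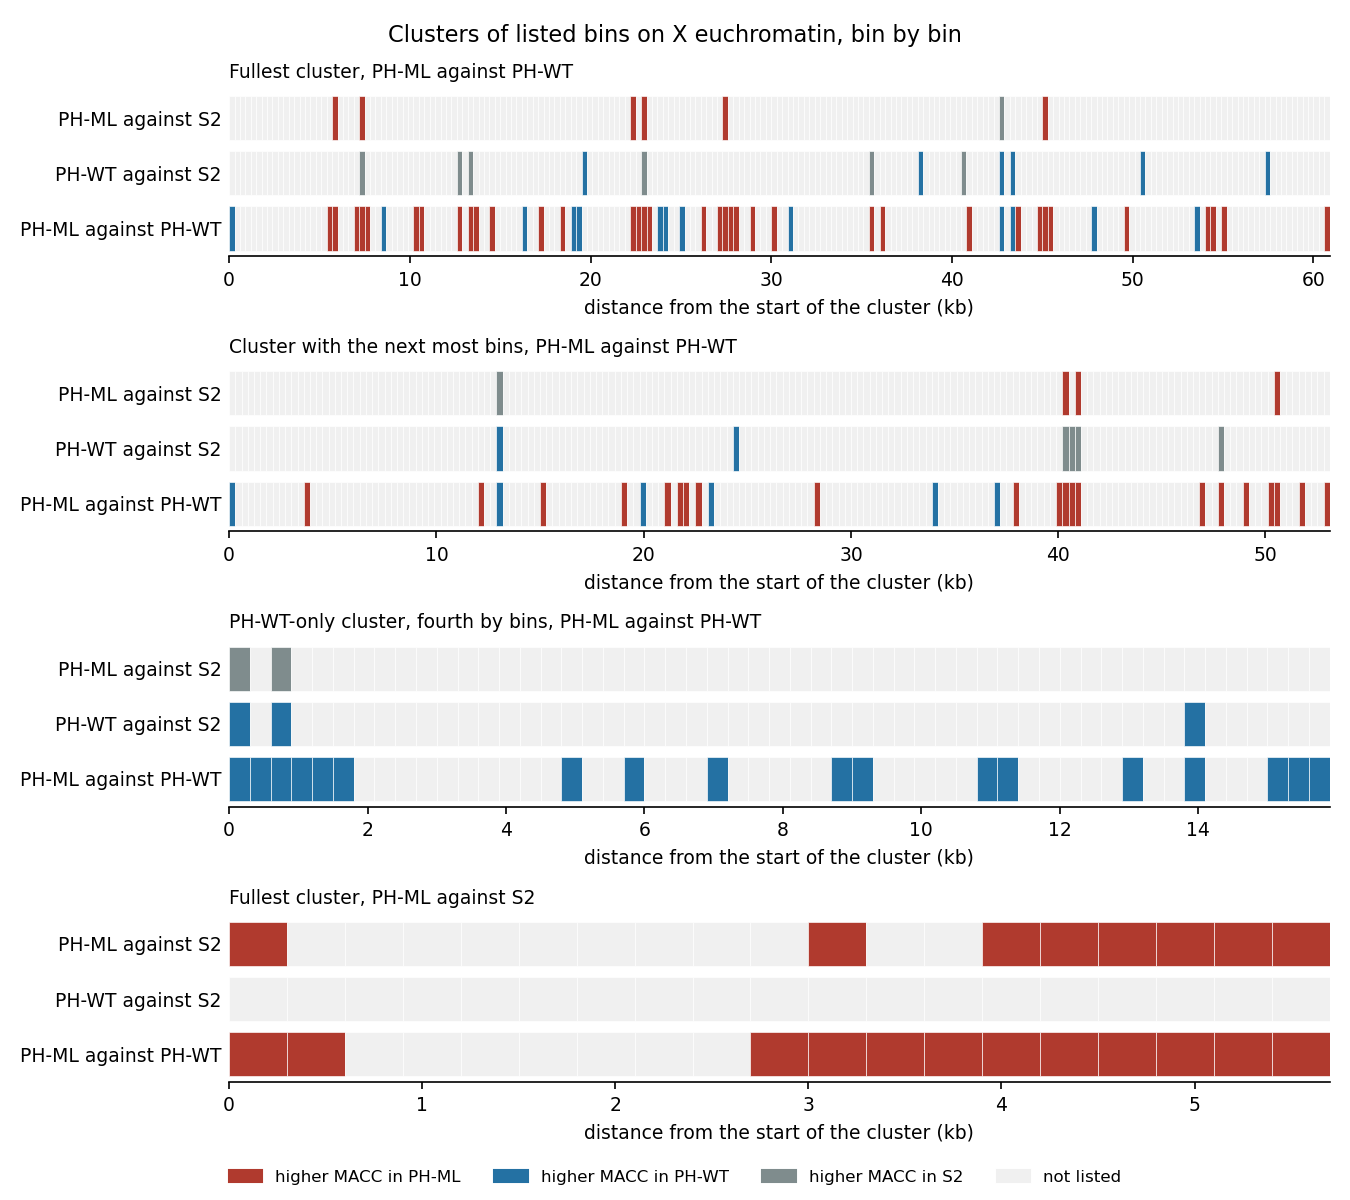
Clusters of listed bins on X euchromatin against distance from each cluster's start (x axis, kb), with the 3 comparisons as lines and 300-bp bins colored by the line with the higher MACC. From top to bottom are the clusters starting at 12605701 (36 PH-ML-high bins over PH-WT, 13 PH-WT-high), 5773801 (21 and 6), 19745101 (0 and 18) and 11695501 (12 and 0).

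Counting over the 3 lists accounts for all 658 listed bins of X euchromatin. A single list held 507 of them, 129 were on a pair of lists and 22 on all 3. The largest groups were 226 bins listed only as PH-WT-high over PH-ML and 224 listed only as PH-ML-high over PH-WT. Then came 46 bins with PH-WT above PH-ML and S2, 14 of them in the stretch, and 46 with PH-WT below PH-ML and S2, 0 of them in the stretch, with no listed difference between PH-ML and S2 in either group. Bins that set PH-ML apart in this way were fewer, 28 with PH-ML above PH-WT and S2 and 6 with PH-ML below them. The list of PH-ML against S2 is also shorter, with 62 bins on X euchromatin against 171 for PH-WT against S2. The lower numbers therefore do not show that PH-ML was set apart less often for the size of its list. At 12 bins the lists together put PH-ML above S2 and S2 above PH-WT, and at 6 bins the opposite. Because each pair of comparisons shares a cell line, a bin with an extreme value in that line can enter 2 lists at the same time, and these numbers describe the lists without showing that separate measurements coincide.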

How the data were processed

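MNase-titration-seq libraries of 3 cell lines (30 libraries, 10 per line) were grouped by the line in their titles. Per the labels, reads were mapped with Bowtie to dm3. The authors filtered reads, fitted library-size-normalized read frequencies in 300-bp bins over the titration, corrected the slope for GC content (MACC) and called bins that differ between lines. The test and threshold of the calls are not given in the sources used here. The deposited lists hold positions with the line of higher MACC (3 lists) or a constant value in 1 direction (5 lists), so they give calls, not a count, score or percent. Depth is unknown.

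Bins were counted with Python 3.11.15 and scipy 1.17.1 (Wilson intervals, 95%) by direction, in windows of 1 Mb and blocks of 5 Mb, as runs of adjacent bins and as clusters with starts at most 10 kb apart. Spans run to the last listed bin of each chromosome. The code that finds runs and clusters was checked on simulated lists with known runs, and no clustering was tested against chance. Named regions are, per comparison, the 4 clusters with most bins, the 2 longest runs per direction, the fullest and emptiest windows and the stretch from 2011501 to 2025900. Regions and groupings were chosen with earlier results of these data known. No sequence or gene of dm3 was used.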

Additional observations from a re-analysis of the deposited data

How the results depend on the processing

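Of 57 alternative values, 44 stayed within the 95% Wilson interval of the value reported, or within 1.5 times a reported count. Leaving out the stretch from 2011501 to 2025900 moved PH-WT against S2 to a PH-WT-high share of 34.5%, 7.08 bins per Mb, 0.694 times the density of the autosomal arms, 17 bins in the fullest window and 51 bins in clusters of 5 or more, and for PH-ML against S2 it left 8 bins in such clusters. Taking X to its last listed bin gave 36.5% for PH-WT against S2. Counting runs in place of bins gave 5.66 per Mb for PH-WT against S2 and 21.9 per Mb for PH-ML against PH-WT. For PH-ML against PH-WT, merging within 1 kb gave a PH-ML-high share of 47.7%, on the other side of an even split. Alternatives added after the data were seen left out the largest cluster (34.5% for PH-WT against S2, where it is the stretch itself) or 10 to 15 Mb (55.1% for PH-WT against S2, also on the other side of an even split, and 42.1% for PH-ML against PH-WT). In all these settings the share for PH-ML against S2 stayed between 69.4% and 82.8%. The deposited lists of 1 direction gave the same bins on X as the lists of both directions, where both exist. No paired analysis was possible because the lists do not separate the 2 experiments. For the same reason no experiment or library could be left out, and no stricter threshold could be set without scores. Depth is unknown, so a bin that is not listed does not show equal MACC.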

Other observations

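Further clusters of PH-ML against PH-WT on X euchromatin, next in size after those named by rule, were of both kinds. From 19778401 to 19810200, 11 bins were PH-ML-high and 6 PH-WT-high, near the cluster from 19745101 to 19761000 in which all listed bins were PH-WT-high. From 13941001 to 13954200 the numbers were 8 and 6. From 2484901 to 2528700 they were 1 and 12, with 4 PH-WT-high bins over S2 and 0 S2-high.

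Beyond the limit of X euchromatin, the last 1.92 Mb of X up to its last listed bin carried more calls per length. PH-WT against S2 had 20.9 listed bins per Mb there, with 1 PH-WT-high and 39 S2-high bins, against 8.34 per Mb within the limit. PH-ML against PH-WT had 47.5 per Mb, with 72 PH-ML-high bins and 19 PH-WT-high, against 29.2 per Mb within it. PH-ML against S2 had 8 bins, 7 of them PH-ML-high. The difference between these parts of X was not tested.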
